A study of Homo sapiens with 4 samples.

Results

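The genes examined here are 10 human genes of NAD metabolism, chosen by name, of 19970 protein-coding genes on chromosomes 1 to 22 and X. They are NAMPT, NMNAT1, NMNAT2, NMNAT3, NAPRT, QPRT, NADSYN1, NNMT, SIRT1 and PARP1. For each, the H3K27ac ChIP-seq peaks within 1 kb of the start site of the canonical GENCODE transcript and within 100 kb of the gene body were collected on hg38. H3K27ac is the acetylation of lysine 27 of histone H3, a mark of active promoters and enhancers, and ChIP-seq sequences the DNA that an antibody to it pulls down.

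The study profiled MDA-MB-231 and Hs578T, established mesenchymal cell lines of triple-negative breast cancer (TNBC), with 2 libraries per line. In all 4 libraries the cells were starved for 8 h, kept for 48 h in TWEAK, a cytokine of the TNF family, at 10 ng/ml with 1 replenishment, and then left for 72 h after its washout, as labelled; the study's text gives a longer wash-off for such cells. Cells without TWEAK, or sampled before its removal, were not analysed here, so the values describe the washout state and no effect of TWEAK was measured. The question they address is which NAD genes lie in marked chromatin in cells that had seen TWEAK, and whether the NAMPT route differs in this from the other routes to NAD.

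NAD is the electron carrier of central metabolism and also the substrate of sirtuins and PARPs, which split off nicotinamide when they use it. Cells refill it by salvage, in which NAMPT turns nicotinamide into nicotinamide mononucleotide and the NMNAT enzymes turn that into NAD. They can also make it from nicotinic acid through NAPRT (the Preiss-Handler route) or from tryptophan through quinolinic acid and QPRT (the de novo route), both of which end with NADSYN1. NNMT methylates nicotinamide and so takes it out of salvage, while SIRT1, a deacetylase, and PARP1, a DNA damage sensor that builds ADP-ribose chains, consume NAD. NAMPT salvage is the main source of NAD in most mammalian tissues, and NAMPT is a drug target in cancer.

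Each library is a list of called peaks, each with a width and a fold enrichment over the background set for that library. On the chromosomes used, 209 peaks were listed for MDA-MB-231 replicate 1, against 43353, 46330 and 44920 for MDA-MB-231 replicate 2, Hs578T replicate 1 and Hs578T replicate 2. The small list had no peak within 100 kb of any of the 10 genes, and its calls are too few to tell a marked gene from an unmarked one. Values below are therefore those of the 3 large lists, always in the order MDA-MB-231 replicate 2, Hs578T replicate 1, Hs578T replicate 2, so MDA-MB-231 has 1 usable list and no replicate spread. The large lists differed about as much within Hs578T as between the lines: the bases called in both, as a share of those called in either (the Jaccard index), were 0.770 and 0.759 between the lines and 0.780 between the Hs578T lists. In each large list 4 of 4 mesenchymal markers (VIM, CD44, AXL, FOSL1) and 0 of 4 luminal markers (ESR1, GATA3, FOXA1, ESRP1) had a promoter peak. Among all protein-coding genes 58.1%, 58.2% and 56.4% had one. The markers were chosen with earlier results of these data known, so their counts are a description and not a check of the lists. Sequencing depth is unknown, because peak lists carry no read totals. Fold enrichment depends on each library's background, so its size is compared only within a list, by rank.

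NAMPT, NNMT, SIRT1 and PARP1 had marked promoters, whereas QPRT of the de novo route did not. A peak within 1 kb of the start site was called for 0 of 10 genes in MDA-MB-231 replicate 1, where 0.0601% of all protein-coding genes had one. In the large lists 7, 8 and 7 of 10 genes had one, beside 58.1%, 58.2% and 56.4% of all protein-coding genes, a background too close for counts over 10 genes to be read as a difference. The 7 genes with a peak in all 3 lists were NAMPT, NMNAT1, NAPRT, NADSYN1, NNMT, SIRT1 and PARP1. QPRT and NMNAT3 had none in any list, and NMNAT2 had one only in Hs578T replicate 1.

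The promoters of NAMPT, SIRT1, NADSYN1, QPRT and NMNAT3 are printed because they hold the span seen here, from strongly marked through faintly marked to unmarked. Each line gives the 250 bases before the RefSeq start site on GRCh38.p14, read in the direction of transcription, with GC boxes (GGGCGG, or CCGCCC on the other strand) in capitals.
NAMPT promoter (chr7:106284984-106285233, minus strand): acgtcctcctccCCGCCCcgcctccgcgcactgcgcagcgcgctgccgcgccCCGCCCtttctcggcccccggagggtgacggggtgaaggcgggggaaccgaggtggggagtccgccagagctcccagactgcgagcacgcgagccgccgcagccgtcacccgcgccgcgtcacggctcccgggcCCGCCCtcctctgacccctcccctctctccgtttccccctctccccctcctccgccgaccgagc
SIRT1 promoter (chr10:67884406-67884655, plus strand): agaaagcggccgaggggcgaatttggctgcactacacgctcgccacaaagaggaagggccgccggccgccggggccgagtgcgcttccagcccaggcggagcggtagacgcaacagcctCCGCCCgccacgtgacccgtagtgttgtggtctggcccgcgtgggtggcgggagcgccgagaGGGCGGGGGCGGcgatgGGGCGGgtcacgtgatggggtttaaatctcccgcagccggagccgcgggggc
NADSYN1 promoter (chr11:71452953-71453202, plus strand): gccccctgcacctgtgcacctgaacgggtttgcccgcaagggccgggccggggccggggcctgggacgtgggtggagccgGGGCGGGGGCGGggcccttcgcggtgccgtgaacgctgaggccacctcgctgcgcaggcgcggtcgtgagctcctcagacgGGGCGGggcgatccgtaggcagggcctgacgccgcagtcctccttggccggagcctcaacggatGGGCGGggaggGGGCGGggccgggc
QPRT promoter (chr16:29678930-29679179, plus strand): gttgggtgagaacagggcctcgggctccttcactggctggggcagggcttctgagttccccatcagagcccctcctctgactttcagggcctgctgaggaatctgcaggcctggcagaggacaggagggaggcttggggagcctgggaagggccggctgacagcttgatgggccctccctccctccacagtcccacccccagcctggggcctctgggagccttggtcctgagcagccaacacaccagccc
NMNAT3 promoter (chr3:139677973-139678222, minus strand): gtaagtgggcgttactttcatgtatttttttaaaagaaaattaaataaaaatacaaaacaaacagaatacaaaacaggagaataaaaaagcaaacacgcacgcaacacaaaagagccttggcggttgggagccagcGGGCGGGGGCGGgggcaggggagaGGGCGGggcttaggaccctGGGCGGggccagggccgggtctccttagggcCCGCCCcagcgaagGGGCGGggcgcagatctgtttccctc

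The QPRT promoter stood apart in its CpG number, though not in its GC content of 64%, which was close to the median of 62.3% over all promoters. In the 300-base RefSeq window, which adds the first 50 transcribed bases, QPRT held 3 CpG dinucleotides, while NAMPT held 38, SIRT1 held 39, NADSYN1 held 34 and PARP1 held 33. NMNAT1 held 27, and NMNAT2 and NMNAT3 held 18 each, against a median of 21 over 21548 RefSeq promoters. The 5 matched promoters with a peak in all large lists held 27 to 39 CpG, and the 3 others held 18 or fewer. How often promoters of a given CpG number have a peak was not computed over all genes. The split was seen after the calls, was not tested and describes only these 8 promoters. GC boxes did not split them in this way, since NADSYN1 had 5 and a faint peak and NMNAT3 had 6 and none. NAMPT had 3 GC boxes, SIRT1 had 4, PARP1 had 2, NMNAT1 had 1, and NMNAT2 and QPRT had 0. A GC box on either strand occurred in 56.8% of all RefSeq promoters. SIRT1 alone of the 8 genes matched there held the E-box CACGTG, with 2 copies, and 8.35% of all promoters hold at least 1. The AP-1 motif (TGACTCA or TGAGTCA) was in none of the 8 and in 4.03% of all. NAPRT and NNMT were not matched.

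NAMPT, the enzyme that sets the pace of salvage, had one of the widest and strongest promoter peaks of the set. The gene lies on the minus strand of chromosome 7 at chr7:106248298-106285966, and its canonical transcript starts at position 106284983. Its promoter peak was 4590, 3978 and 3546 bp wide, with fold enrichments of 17.6, 17.9 and 16.1. Among all promoter peaks of the same list, these folds stood at percentiles 87.8, 91.7 and 94.7, and the widths at percentiles 90.7, 85.5 and 84.2. The peak ran from 1930, 1759 and 1641 bp before the start site to 2659, 2218 and 1904 bp into the gene, and so covered the whole 1-kb window on both sides in every large list. By width it ranked 1 of 7, 1 of 8 and 2 of 7 among the genes with a promoter peak, and by fold 2 of 7, 2 of 8 and 1 of 7. The Hs578T width was 3762 ± 305 bp (mean ± SD, n = 2). The single MDA-MB-231 value, 4590 bp, lay above both Hs578T values, but with 1 list no spread can be set beside it. An unnamed lncRNA (ENSG00000273320) starts 217 bp from NAMPT on the opposite strand, inside the same peak, so the peak belongs to a divergent pair of start sites.

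NNMT, which diverts nicotinamide from salvage, was the only gene whose promoter peak was of like size. It is on the plus strand at chr11:114257787-114313536, with its canonical start at 114296399. Widths were 4471, 3278 and 5371 bp and folds 18.5, 20.3 and 15.2, at percentiles 89.8, 94.7 and 93.3 of promoter peaks in each list. NNMT and NAMPT exchanged places between lists, NNMT being wider in Hs578T replicate 2 and NAMPT in the other 2 lists. The spread between the Hs578T lists was wide for NNMT (4325 ± 1480 bp), and the NAMPT mean lay within it. Unlike the NAMPT peak, that of NNMT lay mostly before the start site, reaching 3779, 2493 and 4426 bp upstream and 691, 784 and 944 bp into the gene. An alternative NNMT start site 38568 bp upstream had no peak in any list.

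Of the NMNAT enzymes, which make NAD from the product of NAMPT, only the nuclear form NMNAT1 had a promoter peak in every large list. NMNAT1 (chr1:9943428-9985501, plus strand) had peaks of 1826, 1857 and 1674 bp with folds of 12.3, 11.1 and 9.58, at percentiles 69.9, 69.9 and 72.5. The start site of LZIC, an unrelated neighbour, lies inside the same peak in all 3 lists, so the mark cannot be assigned to either gene. NMNAT2 (chr1:183248237-183418380, minus strand), the Golgi and cytosolic form best known from axons, had a peak of 685 bp at its start only in Hs578T replicate 1. That peak had a fold of 2.58 and was weaker than all but 0.611% of promoter peaks in the list. In the other 2 lists the nearest NMNAT2 peak was in an intron, 6694 and 6750 bp from the start site. NMNAT3 (chr3:139560180-139678017, minus strand), the mitochondrial form, had no peak nearer than 94458, 94289 and 94262 bp.

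NAPRT, NADSYN1 and QPRT, of the Preiss-Handler and de novo routes, had weak promoter peaks or none. NAPRT, on the minus strand of chromosome 8, which opens the Preiss-Handler route, had peaks of 2867, 1539 and 2059 bp with folds of 4.998, 5.70 and 4.96, at percentiles 15.6, 28.1 and 27.7. NADSYN1 (chr11:71453109-71524107, plus strand), the amidating enzyme shared by both routes, had peaks of 1475, 1501 and 1253 bp with folds of 3.49, 2.91 and 2.77. Those folds stood at percentiles 3.92, 2.52 and 1.28, near the floor of what was called. QPRT (chr16:29663279-29698699, plus strand) had no peak anywhere in its gene body. Its nearest peak lay 31021, 30960 and 30944 bp from the canonical start, and its alternative start 15901 bp upstream was also unmarked. In every large list these 3 genes had a lower promoter fold than NAMPT or no promoter peak.

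The promoters of SIRT1 and PARP1 lay between NAMPT and these genes in fold. SIRT1 (chr10:67884656-67918390, plus strand) had promoter peaks of 2434, 2750 and 2404 bp with folds of 11.9, 10.9 and 8.56, at percentiles 67.7, 69.1 and 65.7. PARP1 (chr1:226360210-226408154, minus strand) had peaks of 1814, 2120 and 1806 bp with folds of 9.04, 6.55 and 5.69, at percentiles 49.1, 36.3 and 36.9. The PARP1 peak lay mostly in the gene, with 1732, 1696 and 1253 bp after the start site and 81, 423 and 552 bp before it. In every large list the order by fold was NMNAT1, SIRT1, PARP1, NAPRT, NADSYN1, all below NAMPT and NNMT.

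**Figure D1:**
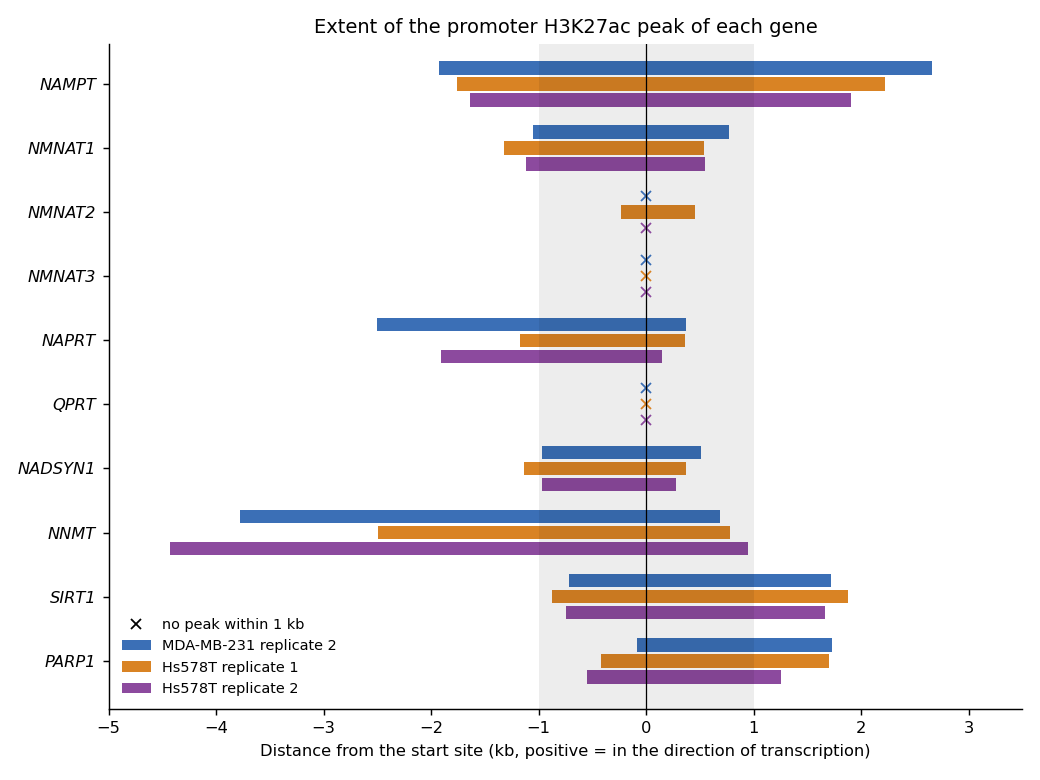
Extent of the promoter H3K27ac peak of each gene in the 3 large lists, in kb from the canonical start site with transcription to the right; bars are peaks, crosses mark lists without a peak within 1 kb (grey band). NAMPT spans the start site on both sides, NNMT extends mostly upstream, and QPRT and NMNAT3 have no bar.

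Around the promoter, NAMPT stood in a row of peaks that belong to no other annotated protein-coding start site. Within 100 kb of its gene body there were 8, 9 and 8 peaks covering 18835, 17144 and 16071 bp, or 7.92%, 7.21% and 6.76% of the 237669-bp window. The Hs578T mean was 16607.5 ± 759 bp (SD, n = 2), and MDA-MB-231 replicate 2 lay above both Hs578T lists. Among all protein-coding genes these covered lengths stood at percentiles 73.6, 66.5 and 67.5, where the median gene had 10071.5, 11146.5 and 10133 bp. No other protein-coding gene starts in the NAMPT window. Peaks more than 1 kb from every protein-coding start site, called away peaks below, numbered 7, 8 and 7 and made up 75.6%, 76.8% and 77.9% of the covered bases. Merged over the large lists, the NAMPT peaks formed 10 regions, of which 7 were called in all 3 lists, 1 in 2 and 2 in 1.

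The strongest peak in the window of any of the 10 genes was an intergenic one 61019 bp upstream of NAMPT, at chr7:106343387-106348617 in the union of the lists. Its folds of 28.2, 31.4 and 29.99 exceeded those of the NAMPT promoter in the same lists and stood at percentiles 99.0, 99.5 and 99.7 of all peaks. It was 5231, 4925 and 4606 bp wide, also more than the promoter peak. A region 28714 bp upstream (chr7:106312290-106315104) had folds of 15.3, 12.4 and 12.6 over 2692, 2815 and 2216 bp. Past the 3′ end, 68272 bp from the start site, chr7:106215163-106218260 had folds of 13.9, 13.3 and 10.7 over 3076, 2632 and 2930 bp. Both stood between percentiles 85.6 and 90.3 of all peaks in every list.

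The other NAMPT regions were weak. One at 45041 bp upstream (chr7:106329411-106330637) had folds of 5.62, 4.10 and 3.66, close to or below the middle of each list, at percentiles 50.1, 37.8 and 30.6. Regions 33279 bp upstream and 79182 bp downstream were called in all 3 lists at folds below 4. A region 92903 bp upstream was called in MDA-MB-231 replicate 2 and Hs578T replicate 1. Of the 2 regions seen in a single list, one of 229 bp lay 37331 bp downstream in Hs578T replicate 1 and one of 653 bp in an intron 3496 bp downstream in Hs578T replicate 2. The 4 strong regions and the 3 weaker ones were thus called in the single usable MDA-MB-231 list and in both Hs578T lists. With a single usable list for MDA-MB-231, sharing between the lines was not tested. The list-specific regions were short and weak.

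**Figure D2:**
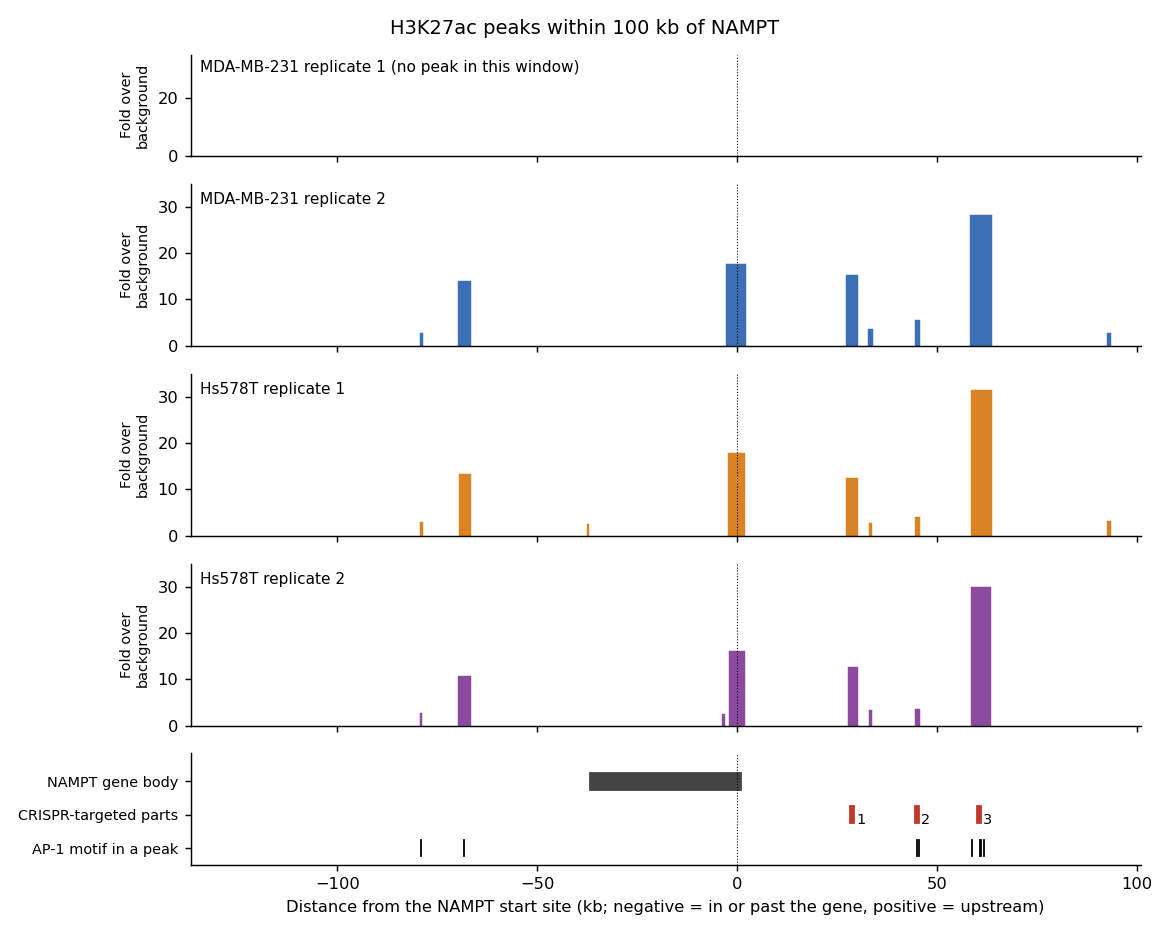
Peaks within 100 kb of NAMPT in the 4 lists, by distance from the canonical start site in kb (positive is upstream). Box width is peak width and box height is fold over the background set for each library. Below are the gene body, the parts targeted by CRISPR guide pairs and the AP-1 motifs inside peaks; the peak 61019 bp upstream is the highest in each large list and MDA-MB-231 replicate 1 has no peak.

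CRISPR guide pairs were used in the study to remove parts of this sequence, and their places on hg38 show what part of each peak they span. Of 6 guides, 5 matched chromosome 7 exactly and 1 matched after its leading G was left out, each next to a PAM. The labels give no such edit for the cells profiled here. All 3 parts lie upstream of NAMPT, which is on the minus strand, although the study's text describes the enhancer as downstream of the promoter. Between the expected cuts, 3 bases from each PAM, the part nearest the gene was chr7:106313180-106314259 (1080 bp), wholly under the peak 28714 bp upstream in all 3 lists and 40.1%, 38.4% and 48.7% of that peak. The middle part was chr7:106329468-106330486 (1019 bp), of which 981, 903 and 1019 bp lay under the weak peak 45041 bp upstream. The far part was chr7:106345015-106345921 (907 bp), inside the strongest peak, of which it took 17.3%, 18.4% and 19.7%. The middle part thus took 86.7%, 87.2% and 88.4% of the weakest of these peaks, and the far part less than 20% of the strongest.

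The AP-1 motif, bound by FOS and JUN family dimers, occurred 8 times in the NAMPT away peaks of each large list. It was searched as TGACTCA or TGAGTCA, which are each other's reverse complement, so that both strands are read at once. The sites are shown with 10 bases on either side, as read on the plus strand, the motif in capitals, since they mark which of the NAMPT regions hold it.
AP-1 site 1, 79118 bp downstream (chr7:106205855-106205881, plus strand): aaccgtgcaaTGAGTCAtgcagagtga
AP-1 site 2, 68352 bp downstream (chr7:106216621-106216647, plus strand): tttaaggacaTGACTCAgaaatgacac
AP-1 site 3, 45152 bp upstream (chr7:106330125-106330151, plus strand): cttttttgtgTGAGTCAtctctctgaa
AP-1 site 4, 45569 bp upstream (chr7:106330542-106330568, plus strand): cttttctcccTGAGTCAaatttctctg
AP-1 site 5, 58804 bp upstream (chr7:106343777-106343803, plus strand): ctacatatatTGAGTCAtacagaatgt
AP-1 site 6, 60674 bp upstream (chr7:106345647-106345673, plus strand): cactacaggaTGACTCAcaggaccaaa
AP-1 site 7, 61037 bp upstream (chr7:106346010-106346036, plus strand): tataaccttcTGAGTCAttttcctgtg
AP-1 site 8, 61852 bp upstream (chr7:106346825-106346851, plus strand): tctaggttgaTGAGTCAggggatttca

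Sites 5 to 8 all lay in the strongest peak and sites 3 and 4 in the weak peak 45041 bp upstream. Site 2 lay in the strong downstream peak and site 1 in the weak one 79182 bp downstream. The promoter peak and the peak 28714 bp upstream held none, so strong peaks at this locus occurred both with and without the motif. Of the 8 sites, 2 fell in a targeted part, site 3 in the middle one and site 6 in the far one, whose surroundings are printed with AP-1 and NF-κB motifs in capitals.
Far targeted part, around site 6 (chr7:106345511-106345810, plus strand): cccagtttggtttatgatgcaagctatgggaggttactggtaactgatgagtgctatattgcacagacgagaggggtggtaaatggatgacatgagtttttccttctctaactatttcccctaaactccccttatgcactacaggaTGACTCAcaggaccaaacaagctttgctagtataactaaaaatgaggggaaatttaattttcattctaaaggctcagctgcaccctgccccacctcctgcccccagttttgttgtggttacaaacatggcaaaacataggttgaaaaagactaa
Middle targeted part, around site 3 (chr7:106330038-106330171, plus strand): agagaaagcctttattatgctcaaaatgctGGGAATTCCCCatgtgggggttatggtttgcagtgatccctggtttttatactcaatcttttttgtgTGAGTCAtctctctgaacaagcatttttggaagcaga
In the middle part the run GGGAATTCCCC, whose leading 10 bases are a palindrome that fits the NF-κB consensus on both strands, ended 56 bases before the AP-1 motif. The only other NF-κB match in the NAMPT peaks was in the promoter peak, downstream of the start site.

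Counted over whole peaks, the NAMPT share with AP-1 was near that of all away peaks, and counted in peak centres it was higher. NAMPT had AP-1 in 4 of 7, 4 of 8 and 4 of 7 away peaks, beside 51.6%, 50.8% and 50.1% of all away peaks in the same lists. The away peaks of the other 9 genes had it in 16 of 36, 19 of 45 and 17 of 41. In the central 500 bp, NAMPT again had it in 4 of 7, 4 of 8 and 4 of 7, whereas the shares of all away peaks were 32.8%, 31.6% and 31.4%, and the other 9 genes had it in 10 of 36, 13 of 45 and 11 of 41. Per kb of away peak there were 0.562, 0.608 and 0.639 sites at NAMPT, 0.391, 0.390 and 0.376 at the other 9 genes and 0.458, 0.440 and 0.446 over all. These are counts of letters in the reference, with 8 sites at NAMPT, and no test was made on them. The half-MARE, a motif of MAF factors that contains the AP-1 motif, was in 0 NAMPT peaks, where 4.24%, 4.18% and 4.03% of all away peaks held it, a share at which 0 of 7 or 8 says little.

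Compared with the other routes, NAMPT had more marked sequence in away peaks than NAPRT, QPRT, NADSYN1, SIRT1 and PARP1, but not in all covered bases. NAPRT had 19477, 19303 and 17003 covered bp, slightly more than NAMPT in each list, by 642, 2159 and 932 bp. Of this, 75.8%, 79.5% and 75.3% lay at start sites of its neighbours, 8 of which lie in the window, and its away peaks covered 1842, 2426 and 2138 bp. QPRT had 5 peaks in each list covering 8662, 8629 and 8273 bp, and the other start site marked there was that of KIF22. Of its 4 away regions, 3 lay 84339, 74426 and 67262 bp upstream and the other 31141 bp downstream of the start, all outside the gene. NADSYN1 had 3 peaks in each list covering 4355, 3966 and 3554 bp, with an intronic away peak 46968 bp downstream of its start at folds of 3.48, 3.75 and 3.69. NAMPT away peaks covered 1.96, 1.91 and 1.803 times the away bases of QPRT, the highest of these 3 genes. In the Hs578T lists away bases were 12845.5 ± 453 bp at NAMPT and 6915 ± 43.8 bp at QPRT (SD, n = 2). The SD measures how repeatably a locus was called, not how much genes differ. By definition away bases also depend on neighbouring start sites, of which the NAMPT window holds 0 and the QPRT window 4.

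SIRT1 and PARP1 had few peaks around them, unlike some other consumers counted below. SIRT1 had 4, 5 and 4 peaks covering 6939, 7920 and 7174 bp, so that NAMPT had 2.71, 2.16 and 2.24 times the covered bases. Its strongest peak was not at the promoter but 34501 bp upstream, an intergenic region (chr10:67849387-67850923) with folds of 18.3, 17.1 and 13.7. PARP1 had 2 peaks in each list covering 4019, 4324 and 3704 bp, one at its own start and one at that of LIN9, and 0 away peaks. NNMT, despite its wide promoter peak, had 2, 4 and 3 away peaks covering 1815, 3651 and 2616 bp. Its window took up 9151, 10321 and 12216 bp in all, part of it at the start sites of RBM7 and C11orf71. Agreement between lists was lowest at NNMT, with Jaccard indices of 0.629, 0.681 and 0.717 (MDA-MB-231 replicate 2 with each Hs578T list, then the Hs578T lists), against 0.875, 0.780 and 0.808 at NAMPT.

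The NMNAT genes had the most marked and the least marked windows of the 10 genes. NMNAT2, whose start was unmarked in 2 of 3 lists, had 16, 20 and 18 peaks covering 40942, 44672 and 40413 bp, at percentiles 96.1, 96.0 and 95.8 of all genes. The window is long (370144 bp), because the gene itself spans 170144 bp. Away peaks held 35966, 39678 and 35821 bp of it. A pair of strong intronic regions, 145407 and 138432 bp into the gene (chr1:183270473-183275474 and chr1:183277144-183282752), had folds of 28.0, 24.1 and 22.4 and of 20.9, 22.5 and 19.0. Which gene these regions serve cannot be read from peak lists.

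NMNAT1 had 12, 14 and 13 peaks covering 30006, 34633 and 32725 bp. Much of it was a broad region in an intron of CTNNBIP1 (chr1:9889561-9902155), 47617 bp upstream of NMNAT1, of which 11065, 12595 and 11317 bp were covered. It was 1 peak in Hs578T replicate 1 and 2 peaks in each of the other large lists. Inside NMNAT1 an intronic peak 15984 bp downstream of the start had folds of 15.7, 19.6 and 14.6, above those of the promoter in each list. NMNAT3 had 1 peak in each list, of 1069, 1140 and 1083 bp, 94894 bp upstream of its start. It was the least covered of the 10 windows, with 0.336%, 0.359% and 0.341% of its bases under a peak.

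By share of window covered, NAMPT ranked 4 of 10 in every large list, after NMNAT1, NMNAT2 and NAPRT. By away bases it ranked 3 of 10 in every list, after NMNAT2 and NMNAT1. The median over the 10 genes was 8906.5, 9475 and 10244.5 covered bp, below the median over all genes given above in the first 2 lists and above it in the last. With 2 lists per line, 1 of them nearly empty, an exact permutation test between the lines cannot give a p below 1 in 3, and none was made.

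**Figure D3:**
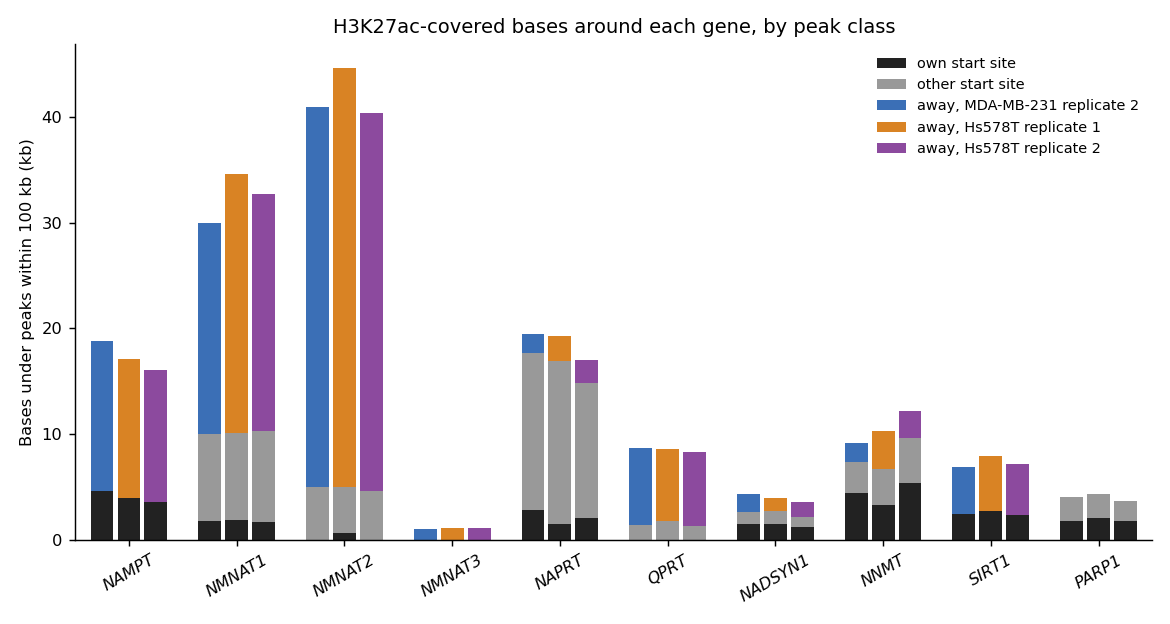
Kilobases under H3K27ac peaks within 100 kb of each gene body, in the 3 large lists (3 bars per gene). Black is the peak at the gene's own start site, grey is peaks at other protein-coding start sites and colour is away peaks; NAPRT is mostly grey, whereas NAMPT has no grey at all.

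Beyond the 10 genes, 39 further genes of NAD metabolism were read in the same way. In the large lists 27, 26 and 27 of 39 had a promoter peak (69.2%, 66.7% and 69.2%, beside the 58.1%, 58.2% and 56.4% of all genes), and 0 of 39 in MDA-MB-231 replicate 1. A peak in all 3 large lists was called for 26 genes, in none for 11 and in 1 list for 2. The de novo route had the smallest marked share: of 8 genes, 2, 1 and 2 were marked, and AFMID, which removes the formyl group from formylkynurenine, was the only one marked in all lists. Its folds of 14.8, 13.6 and 12.0 stood at percentiles 80.4, 80.3 and 84.2. TDO2, IDO1 and IDO2, the dioxygenases that open tryptophan breakdown, had no promoter peak, and neither did HAAO, which makes the precursor of quinolinic acid, or ACMSD, which draws that precursor away. KMO, the kynurenine hydroxylase, had a peak of 444 bp and fold 3.28 only in Hs578T replicate 2. KYNU, the kynureninase, had one of 1096 bp and fold 2.91 only in MDA-MB-231 replicate 2. Both were weak in their lists, at percentiles 6.22 and 0.785.

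Of 21 further NAD-consuming enzymes, 18 had a promoter peak in each large list, beside 58.1%, 58.2% and 56.4% of all protein-coding genes. The unmarked ones were CD38, BST1 and SARM1, which are NAD glycohydrolases and cyclases. The 21 were chosen with earlier results of these data known, and a split by enzyme class was not tested. Several further genes had more marked sequence around them than NAMPT: of the 29 further de novo and consuming genes, 8, 10 and 10 had more covered bases within 100 kb. The median over the 21 consumers was 13583, 13427 and 14071 bp, and that over the 8 de novo genes was 5195, 4646.5 and 4515.5 bp. Away bases were not computed for these genes. In promoter fold 2, 1 and 1 of the 29 exceeded NAMPT. Further genes outside the 29 also did. NUDT12 had folds of 18.3, 21.8 and 17.4, above NAMPT in every large list, and PNP had 18.2 in MDA-MB-231 replicate 2. NADK, AOX1, SLC12A8 and SLC25A51, also outside the 29, had more covered bases than NAMPT in every large list. In riboside salvage NMRK2, the muscle form of nicotinamide riboside kinase, was unmarked, while 2 of 3 genes were marked in each list. NADK, NADK2 and NNT, which make and interconvert NADPH, were all marked. AOX1, an oxidase of methylated nicotinamide, and SLC12A8, described as a carrier of nicotinamide mononucleotide, were unmarked. The widest promoter peaks by mean width were those of NADK (5416 bp), PARP12 (3867 bp), PARP4 (3713 bp), NNT (3639 bp) and TIPARP (3110 bp). Width and strength parted here: the NADK peak was 3954, 7865 and 4429 bp wide, but its folds stood at percentiles 36.3, 29.8 and 19.7. PARP4, a vault-associated PARP, was both wide and strong, with fold percentiles of 94.4, 98.6 and 98.8. The PARP12 peak was 5008, 5421 and 1172 bp wide, so its mean rests on the first 2 lists.

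**Figure D4:**
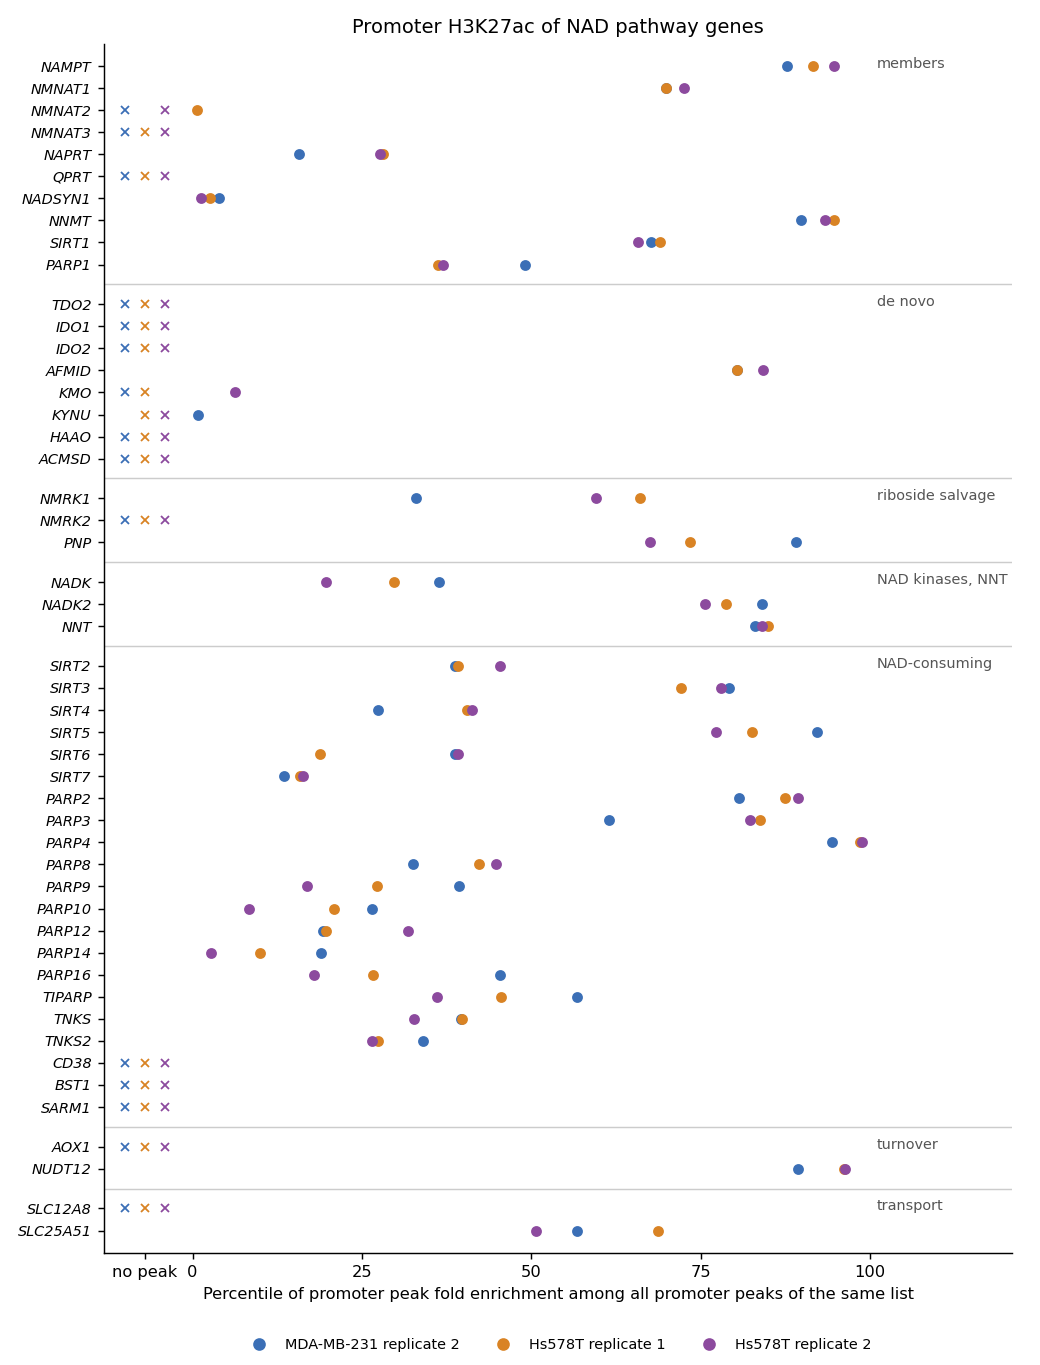
Percentile of the promoter peak's fold enrichment among all promoter peaks of the same list, for the 10 genes (top) and 39 further NAD genes by role; points are the 3 large lists and crosses at the left mark lists without a promoter peak. NAMPT and NNMT lie furthest right among the 10 genes, and the de novo genes are mostly crosses.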

How the data were processed

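H3K27ac ChIP-seq was measured in 4 washout samples. The submitters' processing notes and the study's methods name Trimmomatic, Bowtie2, MACS2, deepTools and bedtools on hg38 (versions and settings not given in the sources used here). The deposited lists, with blacklisted regions removed by the authors, give a score (10 times the −log10 q-value, cut to a whole number), a fold enrichment over local background (a linear ratio) and the −log10 p-value and −log10 q-value of each peak. Their 9 columns, with no summit, are those of broad peaks. Peaks were called per sample by the authors. The study's methods state that input signal was subtracted, so the background behind the fold may draw on input as well.

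Start sites and gene bodies came from GENCODE release 44 (Ensembl canonical transcript). Overlaps of at least 1 bp, covered bases, percentiles within a list and motif matches were computed with Python 3.11.15, pandas 2.3.3, numpy 2.4.6 and pysam 0.24.0, and the interval code was tested on simulated data. No test was made. The 10 genes, the 39 further genes and the markers were chosen with earlier results of these data known. Genes outside the 10 are named by rule: the 39 where a promoter peak was missing in a large list, the 5 with the widest mean peak, those whose start site shares a promoter peak, and the 3 most like NAMPT. AFMID, NADK2, NUDT12, PNP, SLC25A51 and neighbours at marked start sites were named after their values were seen. The study's methods call its ChIP-seq replicates biological, and the labels do not say whether they are separate cultures. Alternatives tried were the strongest 50% of each list, equal list sizes, other windows and flanks, all basic transcripts, merged peaks and leaving out each list.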

Additional observations from a re-analysis of the deposited data

How the results depend on the processing

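Each result was recomputed under its alternatives, taken over the 3 large lists. The 7 genes with a promoter peak in every large list were 5 in the strongest 50% of each list, where NADSYN1 had a peak in 0 and NAPRT in 1 of 3 lists, and 7 under every other alternative run, and the 26 further genes ranged from 19 to 27. The mean of 8.33 NAMPT peaks became 4.33 in the strongest 50% and 1.67 with a flank of 10 kb. The mean of 17350 covered bp became 14789.7 in the strongest 50%, 11986 with a flank of 50 kb and 4332 with 10 kb. The mean of 7.33 away peaks became 3.33 in the strongest 50% and 0.667 with 10 kb. The mean rank of NAMPT by share of window, 4 as reported, became 3.67 in the strongest 50%, 3.67 with 50 kb, 3.33 with 10 kb, and 3 without peaks at other protein-coding start sites. A shorter flank or list leaves fewer peaks by construction. Leaving out each list in turn gave 8 to 8.5 peaks, 16607.5 to 17989.5 covered bp, 7 to 7.5 away peaks and rank 4. Equal list sizes, merged peaks and, for the NAMPT count alone, the central 500 bp of peaks for AP-1 kept every value within 1.5 times or within the spread between lists. No paired analysis was possible because no result comes from a test, and the shared replicate numbers join different cell lines. Depth is unknown, so an uncalled promoter in the large lists was not detected rather than shown to be unmarked.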

Other observations

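Within-list percentiles were used to look for protein-coding genes with a like pattern to NAMPT in promoter peak width, promoter peak fold and covered bases within 100 kb, over the 3 large lists and 11111 candidate genes. ITPRIP, an inositol trisphosphate receptor interacting protein gene, differed from NAMPT by a mean of 2.22 percentile points, ZNF335 by 2.51 and SKP1, a subunit of SCF ubiquitin ligases, by 2.52. The ITPRIP promoter peak was 4790, 4796 and 3286 bp wide, with 19086, 18849 and 18467 covered bp in its window. The likeness describes peak lists only.

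Over the windows of the 10 genes, merged peaks formed 79 regions, of which 61 were called in all 3 large lists, 8 in 2 and 10 in 1. Of these 79 regions, 55 lay away from every protein-coding start site and 16 at the start of another gene. At NMNAT1, 5 of 16 regions were called in 1 list, the highest number for any of the 10 genes, while every region at NAPRT, QPRT, NADSYN1, NMNAT3 and PARP1 was called in all 3.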
